A study of Mus musculus with 6 samples.

Results

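CC chemokine ligands were followed across the cells of H22 liver tumors from control and stress mice. The 10 ligands, Ccl2, Ccl3, Ccl4, Ccl5, Ccl6, Ccl7, Ccl9, Ccl12, Ccl17 and Ccl22, were taken by gene symbol from the 34099 genes counted, and all 10 had UMIs in tumor tissue. A unique molecular identifier (UMI) marks 1 captured RNA molecule. The UMIs of each ligand were summed per mouse over every annotated cell type and over every myeloid cluster of the authors' annotation.

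H22 is a murine hepatocellular carcinoma (HCC) cell line, and its cells had been placed in the liver of wild type male C57BL/6J mice, 8 weeks of age when obtained. Stress mice had gone through chronic stress before implantation, which the methods describe as unpredictable mild stress, and control mice were kept in standard housing. Both groups carried the same tumor and neither received an agent. The dissociated tumor of each mouse gave 1 10x Genomics library, without a sort, from 3 mice in either group.

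CC chemokines are small secreted proteins that carry a pair of adjacent cysteines near their start. They bind G protein-coupled receptors on leukocytes and on other cells, and a gradient of a ligand directs cells that carry its receptor. In tumors they are known for bringing in monocytes, T cells and dendritic cells. Several ligands share a receptor and several receptors share a ligand, so the family is described here by the receptors its members use.

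The libraries held 58794 annotated cells, from 7239 to 11752 per mouse, with a median of 7166 to 20478 UMIs per cell. CPM below is the number of UMIs of a gene per 1000000 UMIs of the same mouse and cell type, and a mean is over the 6 mice. Each library held 149558935 to 187728350 UMIs in annotated cells. Reads had been counted with Cell Ranger 9.0.0 for control and 7.1.0 for stress libraries. An effect of this version cannot be told apart from one of stress. Any 2 libraries shared 14 to 43 cell barcodes, at most 0.431% of the smaller library. The labels say that the mice were separate animals of a group, and 3 mice per group limit the precision of every comparison.

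The cell type labels were checked against their markers. All 7 endothelial, all 7 NK/T, all 4 B cell and all 5 HSC (hepatic stellate cell) markers were highest in the cell type of that name, and 6 of the 8 DC and 6 of the 8 monocyte and macrophage markers were. Of the 5 inflammatory myeloid markers 3 were highest under their label, while S100a8 and S100a9 were highest in neutrophils (65384 and 91115 CPM, against 7496 and 14282 CPM in inflammatory myeloid cells). The neutrophil markers Ly6g, Retnlg, Mmp8, Camp and Ngp were highest in neutrophils (363, 11447, 949, 19424 and 14654 CPM). The remaining marker on that list, Csf3r, was in turn highest in inflammatory myeloid cells (500.3 CPM, against 117 CPM in neutrophils). Of the 5 tumor cell markers 3 were highest in tumor cells, and Krt8 stood at 5.66 CPM there and at 300.1 CPM in HSCs. The cells labelled B cells also held the highest levels of the 3 markers of plasmacytoid DCs, Siglech (72.5 CPM), Bst2 (515 CPM) and Ccr9 (80.2 CPM), which summed to 138 to 626 CPM in control mice and 718 to 1219 CPM in stress mice. The cells labelled M-MDSCs (monocytic myeloid-derived suppressor cells, cluster 23) held Arg1 at 3.91 CPM, Nos2 at 3.57 CPM and Ly6c2 at 3.78 CPM, so none of the 3 markers on that list was highest there, and 53.3% to 77.1% of these cells per mouse were called doublets. They are therefore named by their cluster below. The cells labelled DCs (dendritic cells) fell into 2 unlike clusters. In cluster 20 the 8 DC markers summed to 6267 to 10289 CPM, and in cluster 19 to 220.2 to 726 CPM. Markers of tumor cells summed to 27.1 to 174 CPM in cluster 20 and to 522 to 815 CPM in cluster 19. Called doublets made up 2.19% of the 777 cells of cluster 20 and 36.8% of the 779 cells of cluster 19.

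**Figure D1:**
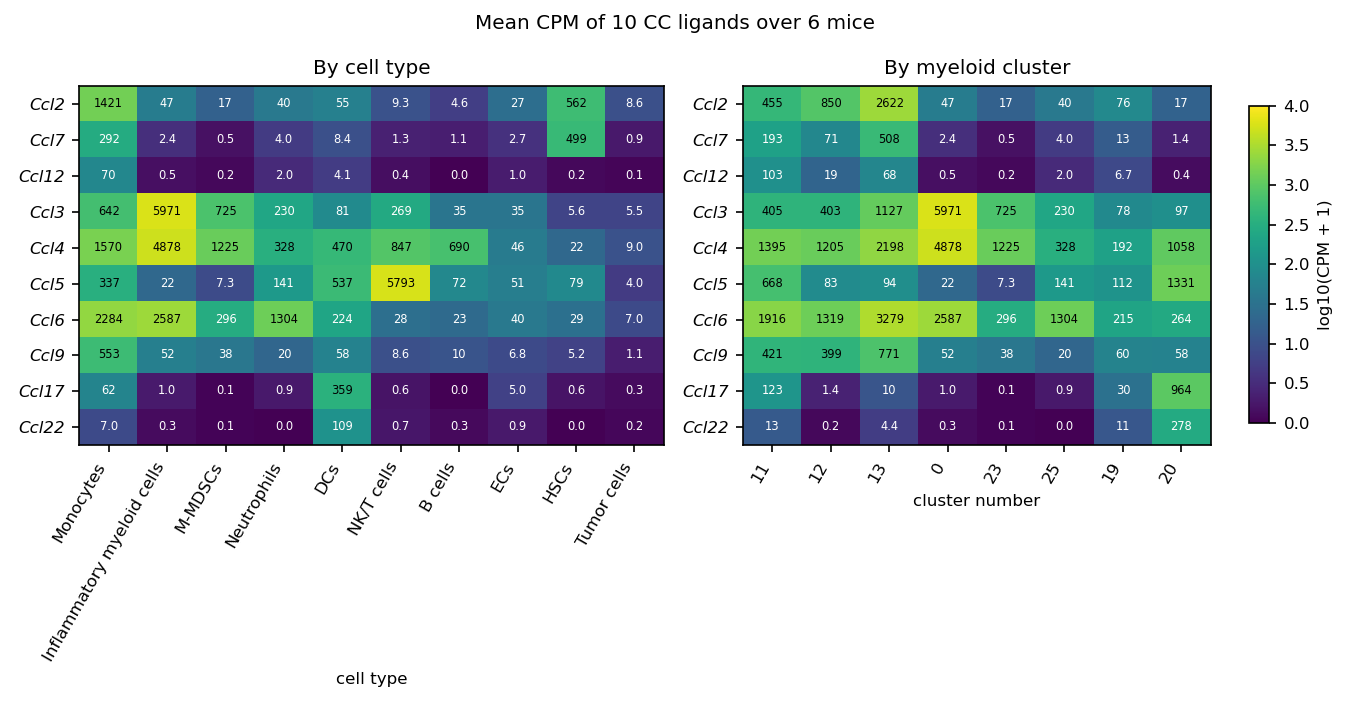
Mean CPM of the 10 CC ligands over the 6 mice, in the 10 annotated cell types (left) and the 8 myeloid clusters (right), with color on a log10(CPM + 1) scale and the CPM printed in each cell of the map. Ccl2, Ccl7 and Ccl12 were bright in monocytes, with Ccl7 brighter still in HSCs (499 CPM, against 292 CPM), Ccl3 and Ccl4 in inflammatory myeloid cells, Ccl5 in NK/T cells, and Ccl17 and Ccl22 in cluster 20. Monocytes are clusters 11, 12 and 13, DCs are clusters 19 and 20, and the cells labelled M-MDSCs are cluster 23.

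Ccl2, Ccl7 and Ccl12 are ligands of Ccr2, the receptor with which monocytes leave the bone marrow. They lie together on chromosome 11 within 67.8 kb (GRCm38, 82035571 to 82103400, all 3 on the plus strand), Ccl2 (ENSMUSG00000035385) first, then Ccl7 (ENSMUSG00000035373) and Ccl12 (ENSMUSG00000035352). Monocytes led for all 3 among the 8 cell types that could be tested. In monocytes Ccl2 stood at 1799, 618 and 2777 CPM in control mice 1 to 3 and 1784, 505 and 1046 CPM in stress mice 1 to 3. The level varied more than 5-fold among the 6 mice, and mouse 2 of either group was lowest. The lowest monocyte value lay above the highest DC value, 81.8 CPM. Below monocytes, neighbouring cell types overlapped at every step of the order, which ran from DCs (54.7 CPM) through inflammatory myeloid cells (47.0), ECs (endothelial cells, 27.0), cluster 23 (16.7), NK/T cells (9.34) and tumor cells (8.59) to B cells (4.59).

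Ccl7 followed the same order at its top. Its monocyte level was 313, 167 and 407 CPM in control mice 1 to 3 and 458, 127 and 279 CPM in stress mice 1 to 3, and DCs came next with no overlap (mean 8.40 CPM, range 2.24 to 18.5). Ccl12, in mice the close relative of Ccl2, was found almost only in monocytes, at 26.0, 76.9 and 51.2 CPM in control mice 1 to 3 and 70.4, 63.7 and 132 CPM in stress mice 1 to 3. DCs followed (mean 4.06 CPM, range 0 to 8.40), and no other tested cell type reached a mean above 1.02 CPM, the level in ECs. Monocytes held 79.6% of all Ccl2 UMIs (75.3% to 89.2% per mouse), 83.0% of Ccl7 and 92.6% of Ccl12. Tumor cells, 29638 of the cells, held 11.5% of Ccl2 at a low mean CPM (8.59). HSCs, with 6 to 50 cells per mouse too few to test, held 8.30% of Ccl7.

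The monocyte clusters differed for these ligands. Ccl2 was highest in cluster 13, at 2755, 1492 and 4574 CPM in control mice 1 to 3 and 3576, 1261 and 2075 CPM in stress mice 1 to 3, above clusters 11 and 12 in all 6 mice. Mean Ccl2 was 849.7 CPM in cluster 12 and 455 CPM in cluster 11. Ccl7 averaged 508 CPM in cluster 13, 193 in cluster 11 and 70.6 in cluster 12. Ccl12 was the exception, with a higher mean in cluster 11 (103 CPM, 20.9 to 192) than in cluster 13 (67.6 CPM, 34.1 to 122), and these ranges overlapped. The clusters were drawn from the same genes, so these differences are a description.

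Ccl3, Ccl4 and Ccl5 attract T cells and monocytes, and Ccl3 and Ccl5 bind Ccr1. They share a stretch of 139 kb on chromosome 11 (83525778 to 83664683) with Ccl6 and Ccl9: Ccl5 (ENSMUSG00000035042), Ccl9 (ENSMUSG00000019122), Ccl6 (ENSMUSG00000018927) and Ccl3 (ENSMUSG00000000982) on the minus strand and Ccl4 (ENSMUSG00000018930) on the plus strand. Among the tested cell types the mean was highest in inflammatory myeloid cells for Ccl3, Ccl4 and Ccl6, in NK/T cells for Ccl5 and in monocytes for Ccl9. Ccl3 (MIP-1 alpha) led in inflammatory myeloid cells, all of cluster 0, at 3315, 7815 and 5927 CPM in control mice 1 to 3 and 8238, 5074 and 5459 CPM in stress mice 1 to 3. Cluster 23 (mean 725 CPM, range 201 to 1559) and monocytes (mean 642 CPM, range 388 to 848) came next, and their ranges overlapped each other but not that of cluster 0. NK/T cells (mean 269 CPM, range 183 to 355) lay below monocytes and above DCs (81.3) without overlap on either side.

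Ccl4 (MIP-1 beta) was more widely spread. Its level in inflammatory myeloid cells was 767, 7486 and 1926 CPM in control mice 1 to 3 and 4876, 6011 and 8202 CPM in stress mice 1 to 3, a range of more than 10-fold with control mouse 1 lowest. Monocytes (1570.1 CPM), cluster 23 (1225), NK/T cells (847), B cells (689.8) and DCs (470.4) followed with overlapping ranges at each step. Inflammatory myeloid cells still exceeded monocytes in all 6 mice. ECs (45.7 CPM) lay below DCs without overlap. Monocytes held 37.0% of Ccl4 UMIs and inflammatory myeloid cells 36.7%, whereas inflammatory myeloid cells held 62.6% of Ccl3.

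Ccl5 (RANTES), made by activated T cells and NK cells, was the member led by lymphocytes. NK/T cells held 5974, 5641 and 7395 CPM in control mice 1 to 3 and 6962, 3187 and 5598 CPM in stress mice 1 to 3. Stress mouse 2 was lowest, and DCs, next in the order (mean 537 CPM, range 152 to 1058), did not reach that value in any mouse. NK/T cells accounted for 73.4% of Ccl5 UMIs (69.4% to 80.7% per mouse), monocytes for 12.6% and DCs for 7.65%. Among myeloid clusters Ccl5 stood at 1331 CPM in cluster 20 and 668 CPM in cluster 11, against 93.5 CPM in cluster 13 and 82.9 CPM in cluster 12.

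**Figure D2:**
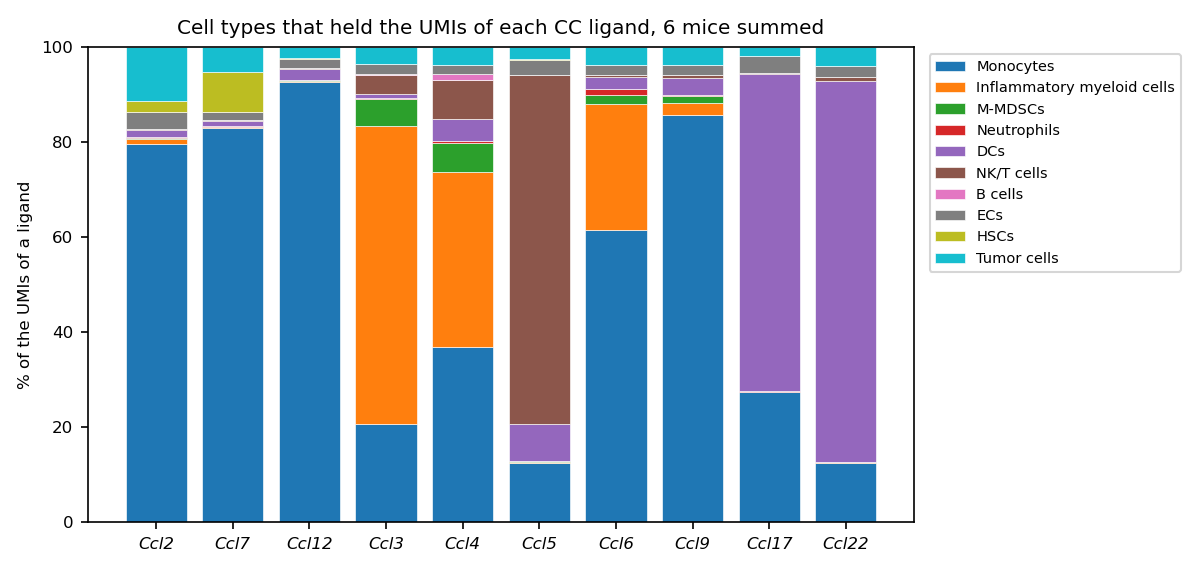
Share of the UMIs of each CC ligand held by each annotated cell type, in percent, with the 6 mice summed and each bar reaching 100%. Monocytes held 92.6% of Ccl12, inflammatory myeloid cells 62.6% of Ccl3, NK/T cells 73.4% of Ccl5 and DCs 80.1% of Ccl22.

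Ccl6 and Ccl9 are ligands of Ccr1 that mice have and humans lack. Ccl6 was shared between inflammatory myeloid cells and monocytes. It stood at 986, 3597 and 2863 CPM in control mice 1 to 3 and 1525, 2811 and 3742 CPM in stress mice 1 to 3 in inflammatory myeloid cells and at 2304, 1832 and 3391 CPM in control mice 1 to 3 and 2010.3, 1689 and 2479 CPM in stress mice 1 to 3 in monocytes. The ranges overlapped and each cell type was the higher one in 3 of 6 mice, so their order is not settled. Both lay above cluster 23 (mean 296 CPM, range 92.8 to 556) in every mouse. Ccl9 was mainly monocytic, at 659, 334 and 791 CPM in control mice 1 to 3 and 543, 471 and 522 CPM in stress mice 1 to 3. DCs (mean 58.3 CPM, range 33.2 to 93.5) and inflammatory myeloid cells (mean 51.7 CPM, range 24.2 to 80.9) overlapped each other and did not overlap monocytes. Cluster 13 was highest among monocyte clusters for both, with 3279 CPM of Ccl6 and 771 CPM of Ccl9.

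Ccl17 and Ccl22 are the ligands of Ccr4, a receptor of regulatory and other T cells. They span 66.4 kb from end to end on chromosome 8 (94745590 to 94812036, plus strand), Ccl22 (ENSMUSG00000031779) before Ccl17 (ENSMUSG00000031780). Both were led by DCs, above monocytes in all 6 mice although the ranges overlapped. Without called doublets the mean level in DCs was 778 CPM of Ccl17 and 225 CPM of Ccl22, against 359 and 109 CPM with them. Within DCs they belonged to cluster 20, which held 62.6% of all Ccl17 UMIs and 75.2% of all Ccl22 UMIs, while cluster 19 held 4.24% and 4.90%. Monocyte cluster 11 held most of the remainder, 26.3% of Ccl17 and 11% of Ccl22. Ccl17 in cluster 20 stood at 392, 1299.8 and 499 CPM in control mice 1 to 3 and 813, 1139 and 1644 CPM in stress mice 1 to 3. In cluster 11 it ranged from 3.92 to 219.6 CPM, with control mouse 1 lowest and control mouse 2 highest.

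The promoters of Ccl12, Ccl17 and Ccl22 are shown because each was called higher in the DCs of stress mice, as described with the comparison of the groups. They did not belong to the same DCs. Ccl17 and Ccl22 belonged to cluster 20, while Ccl12 averaged 6.67 CPM in cluster 19 and 0.359 CPM in cluster 20. No sequence is shown for Ccl5, the other member called there. The sequences are RefSeq's (GRCm38.p6), read 5′ to 3′ on the strand of the gene and ending at the base before the first annotated start of the gene, 250 bases for Ccl12 and Ccl17 and 156 bases for Ccl22. Promoter windows of 6 members were found, those of Ccl3, Ccl6, Ccl9, Ccl12, Ccl17 and Ccl22. They were searched on both strands for TATAAA, for the NF-kB motif by its usual consensus, for the AP-1 motif TGANTCA, for the interferon-stimulated response element GAAANNGAAA (ISRE) and for the PU.1 motif GAGGAAGT, and capitals mark matches.
Ccl12 promoter, chr11:82101595-82101844, plus strand: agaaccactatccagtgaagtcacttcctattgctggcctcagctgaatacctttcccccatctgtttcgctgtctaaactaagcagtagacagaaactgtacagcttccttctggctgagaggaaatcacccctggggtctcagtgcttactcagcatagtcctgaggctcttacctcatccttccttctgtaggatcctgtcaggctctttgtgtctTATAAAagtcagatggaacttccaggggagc
Ccl17 promoter, chr8:94810203-94810452, plus strand: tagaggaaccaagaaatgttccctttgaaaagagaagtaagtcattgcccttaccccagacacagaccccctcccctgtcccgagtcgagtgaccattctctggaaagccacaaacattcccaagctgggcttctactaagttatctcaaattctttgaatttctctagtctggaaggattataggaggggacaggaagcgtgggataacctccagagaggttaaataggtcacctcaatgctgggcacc
Ccl22 promoter, chr8:94745434-94745589, plus strand: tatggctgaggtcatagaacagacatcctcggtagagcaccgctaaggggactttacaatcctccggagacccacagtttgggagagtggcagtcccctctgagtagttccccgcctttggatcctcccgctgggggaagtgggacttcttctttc
Ccl12 held 1 TATAAA, which began 31 bases before its start, and no other match. The windows of Ccl17 and Ccl22 held none of the 5 motifs, which says only that these letters are not in these windows. Of the 6 members, Ccl9 also held TATAAA, and it alone held the NF-kB motif, 35 bases before its start, and TGANTCA, 53 bases before. Among 32851 promoter windows of 250 bases, 12.4% held TATAAA, 3.90% the NF-kB motif, 6.75% TGANTCA, 2.98% GAAANNGAAA and 2.44% GAGGAAGT.

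The share of cells with a UMI was compared after each cell was thinned to 1000 UMIs, because libraries and cell types differed in depth. Thinning left out 1274 cells of control mice and 1041 cells of stress mice that held fewer UMIs. At this depth 70.0% of inflammatory myeloid cells had a Ccl3 UMI (61.4% to 83.2% per mouse, 74.7% before thinning) and 70.7% a Ccl6 UMI (75.8% before). In NK/T cells 72.6% had a Ccl5 UMI (83.5% before), and in monocytes 30.3% had a Ccl2 UMI (48.1% before). Ccl17 was found in 35.8% of the cells of cluster 20 (56.2% before) and Ccl22 in 18.3% (43.2% before). Tumor cells, taken as cells that should lack these myeloid ligands, had a UMI of Ccl3, Ccl4 or Ccl6 in 0.583%, 0.866% and 0.679% of cells (11.5%, 17.3% and 13.6% before), at a median of 21971 to 32523 UMIs per cell against 1156 to 1988 in inflammatory myeloid cells.

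Within a cell type some ligands were counted in the same cells. Of thinned inflammatory myeloid cells with a Ccl3 UMI, 54.9% also had a Ccl4 UMI, against 20.9% of those without, and the share was higher in all 6 mice. Of monocytes with a Ccl2 UMI, 24.6% had a Ccl7 UMI, against 3.46% of those without, again in all 6 mice. In cluster 20 the shares of cells with Ccl22 were 32.4% and 10.4% for cells with and without a Ccl17 UMI, in the same direction in 5 of 6 mice. In the remaining mouse, control mouse 1, only 1 cell had a Ccl17 UMI and both shares were 0%. These are descriptions of cells that share a library and a cluster.

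Across the 28 clusters of all cell types, the members were compared by their mean log2(CPM + 1). Pearson's r was 0.97 between Ccl17 and Ccl22, 0.94 between Ccl3 and Ccl4 and 0.93 between Ccl6 and Ccl9. It was 0.90 between Ccl2 and Ccl7 and also between Ccl3 and Ccl6. Ccl4 with Ccl9 (0.88) and Ccl2 with Ccl12 (0.85) were close behind, so the members did not fall into separate pairs. Outside the CC ligands, the genes most like a member over the 28 clusters were Trem2 (0.93), Mmp19 (0.92) and Slc7a2 (0.91) for Ccl2, and Arg1 (0.96), Kcnk13 (0.96) and C3ar1 (0.95) for Ccl12. For Ccl3 they were Lilrb4b (0.96), Gcnt1 (0.95) and Tnf (0.94), and for Ccl4 Bcl2a1b (0.96), Cxcr4 (0.96) and Sema4d (0.96). Those nearest to Ccl5 were Klrk1 (0.95), Il21r (0.95) and AW112010 (0.94), of which Klrk1 encodes an activating receptor of NK and CD8+ T cells. Ccl6 was nearest to Fcgr3 (0.99), Il1rn (0.99) and Ccr1 (0.98), Ccr1 being its own receptor, and Ccl9 to C3ar1 (0.95), Sirpb1c (0.95) and Cd300c2 (0.95). For Ccl7 they were Cxcl14 (0.95), Slc7a2 (0.94) and C4b (0.93), for Ccl17 Mgl2 (0.96), Apol7c (0.94) and Timd4 (0.93) and for Ccl22 Bcl2l14 (0.98), Apol7c (0.96) and Mab21l3 (0.96). The clusters share libraries and lineages, so r is given without a test.

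Stress mice were then compared with control mice. Sums of UMIs per mouse entered edgeR's quasi-likelihood test, with p adjusted by the Benjamini-Hochberg method over all genes of a fit and a threshold of 0.05. In whole tumors, the sum over all annotated cells, none of the 10 members passed, while 10.1% of the 20601 genes tested did. None had an unadjusted p under 0.05, which 6549 of 20601 genes had, and DESeq2 also called none. All 10 fold changes were above 0 with all mice, from 0.14 for Ccl3 to 2.89 for Ccl22 on the log2 scale, with a median of 1.04 against 0.038 over all genes tested. The median was 0.39 without stress mouse 3, 0.56 without control mouse 1, 1.68 without control mouse 2 and 0.66 with thinned cells. Ccl3 turned to -0.30 without control mouse 1, -0.63 without stress mouse 3 and -0.29 thinned, and Ccl6 to -0.27 and Ccl2 to -0.019 without stress mouse 3. In whole tissue a change in the number of cells of a type and a change in RNA per cell cannot be told apart.

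Only for Ccl7 did the whole tumor groups not overlap. Ccl7 stood at 4.71, 9.12 and 9.43 CPM in control mice 1 to 3 and 12.2, 9.61 and 31.3 CPM in stress mice 1 to 3 (log2 fold change 1.03, SE 0.47, adjusted p = 0.187), so stress mouse 2 lay just above control mouse 3. Of all genes tested, 26.4% were likewise higher in every stress mouse. For Ccl22, with the highest fold change, values were 0.0320, 1.80 and 0.307 CPM in control mice 1 to 3 and 0.961, 7.90 and 8.71 CPM in stress mice 1 to 3, and the groups overlapped through control mouse 2 (log2 fold change 2.89, SE 1.30, adjusted p = 0.180). Without control mouse 2, Ccl17 and Ccl5 passed in whole tumors (log2 fold changes 4.59 and 2.25, adjusted p = 0.0420 and 0.0400), as did 2496 of 21108 genes. Ccl22 did not pass in that edgeR fit, with a log2 fold change of 4.88 (adjusted p = 0.0625). With mice blocked by replicate number Ccl9, Ccl17 and Ccl22 passed in whole tumors (adjusted p = 0.0287, 0.0357 and 0.0245), beside 3431 of 20601 genes. Summed monocyte and macrophage markers were 103 to 407 CPM in control mice and 193 to 608 CPM in stress mice, and summed DC markers 59.6 to 250.4 CPM in control mice and 127 to 414 CPM in stress mice. Both lists overlapped between the groups, and their part in the whole tumor values was not tested.

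By cell type, 59 of the 80 pairs of a member and a cell type had enough UMIs to be tested. Of these, 5 passed the threshold and all 5 were higher in stress mice, 4 in DCs and 1 in tumor cells. No member passed in monocytes (10 tested, background 0.122% of genes called), inflammatory myeloid cells (6 tested, 0%), cluster 23 (6 tested, 0.561%), NK/T cells (6 tested, 0.857%), B cells (3 tested, 0.483%) or ECs (8 tested, 0.213%). In these 6 cell types together 7 of the 39 pairs had an unadjusted p under 0.05, which of all genes 365 of 9219 had in inflammatory myeloid cells, at the lowest share, and 2205 of 14090 in ECs, at the highest. DESeq2 called no member there. Other fits did. Without control mouse 2, Ccl17 passed in monocytes (adjusted p = 0.0271, 64 of 11711 genes called) and Ccl4 in cluster 23 (0.0366, 90 of 9716). Ccl2 passed in NK/T cells without stress mouse 2 (0.0113, 125 of 10504) and Ccl17 in ECs when mice were blocked by number (0.0276, 131 of 14090). With no filter on low counts 7 pairs passed. These were 3 in B cells (306 of 17717 genes called), 2 in NK/T cells (479 of 21687), 1 in inflammatory myeloid cells (80 of 20510) and 1 in cluster 23 (321 of 19439). In DCs 2.64% of 10533 genes passed, and in tumor cells 21.4% of 18856.

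**Figure D3:**
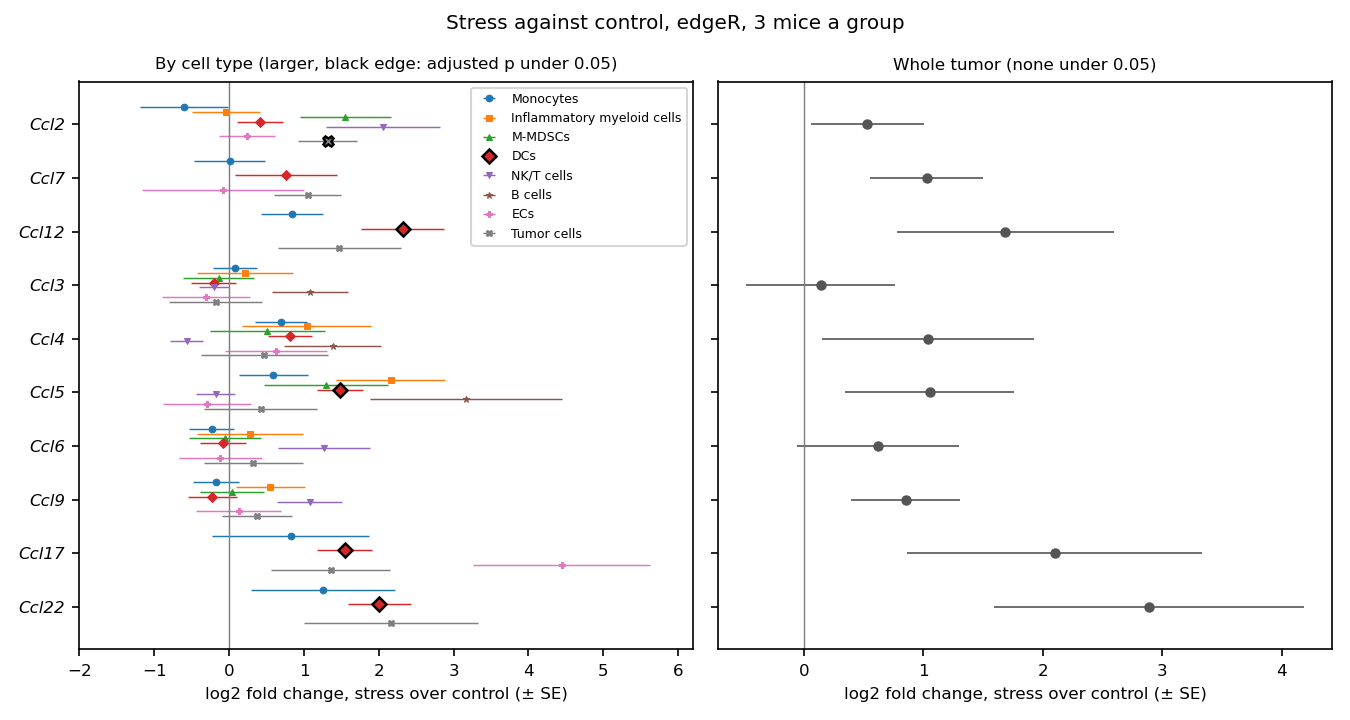
log2 fold change of stress over control mice with its standard error (edgeR, 3 mice per group), for each CC ligand in the tested cell types (left, 1 symbol per cell type, M-MDSCs being cluster 23) and in whole tumors (right). The larger symbols with a black edge mark the 5 pairs past the threshold, Ccl5, Ccl12, Ccl17 and Ccl22 in DCs and Ccl2 in tumor cells. The point farthest to the right is Ccl17 in ECs, where the adjusted p was 0.174 and the highest level 15.2 CPM.

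In DCs, Ccl5, Ccl12, Ccl17 and Ccl22 rose in stress mice. For these 4 members every stress mouse lay above every control mouse, as did 8.28% of all genes tested in DCs. Ccl22 stood at 10.6, 76.8 and 37.4 CPM in control mice 1 to 3 and 112, 139.8 and 276 CPM in stress mice 1 to 3 (log2 fold change 2.0, SE 0.42, adjusted p = 0.0288). Ccl17 stood at 113, 347 and 111 CPM in control mice 1 to 3 and 392, 460.1 and 734 CPM in stress mice 1 to 3 (log2 fold change 1.54, SE 0.37, adjusted p = 0.0467). Both ligands of Ccr4, whose promoters are shown with their levels, were thus higher in each stress mouse, with stress mouse 3 highest for both. Ccl5 stood at 152, 392 and 343 CPM in control mice 1 to 3 and 1058, 521 and 758 CPM in stress mice 1 to 3 (log2 fold change 1.48, SE 0.31, adjusted p = 0.0266), with stress mouse 1 highest.

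Ccl12 was close to the limit of counting. It stood at 0, 1.74 and 1.5 CPM in control mice 1 to 3 and 8.40, 5.21 and 7.54 CPM in stress mice 1 to 3 (log2 fold change 2.32, SE 0.55, adjusted p = 0.0460), which came from 0, 5 and 2 UMIs in the control mice, then 10, 35 and 31 UMIs in the stress mice. The 0 of control mouse 1 allows up to 5.31 CPM (3 counts), counting error only, which is above the value of stress mouse 2. The other 6 members did not pass in DCs, with fold changes from -0.23 for Ccl9 to 0.81 for Ccl4. Ccl4 stood at 319, 491 and 263 CPM in control mice 1 to 3 and 741, 697 and 311 CPM in stress mice 1 to 3, and its groups overlapped (adjusted p = 0.178). Over all 10 members the median was 0.79, and over all genes tested in DCs -0.016. The median of the members was unsteady, at 0.49 without stress mouse 1, 0.51 without control mouse 3 and 1.40 without control mouse 2. Over the 8 members with enough UMIs it was -0.14 without called doublets and 0.21 with thinned cells.

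The makeup of the DCs moved with these values. Cluster 20, which carried Ccl17 and Ccl22, was 25.3%, 40.5% and 25.9% of the DCs of control mice 1 to 3 and 50.4%, 63.3% and 52.2% of those of stress mice 1 to 3, so the groups did not overlap. The 8 DC markers summed over all DCs to 1942 to 2603 CPM in control mice and 3674 to 3968 CPM in stress mice. The 7 NK/T markers, in cells labelled DCs, summed to 1.77 to 27.7 CPM in control mice and 74.9 to 91.6 CPM in stress mice, of which none was at 0 in all mice, and the 5 inflammatory myeloid markers to 945 to 1604 CPM in control mice and 1939.8 to 3102 CPM in stress mice. These lists also separated the groups. Tumor cell markers summed to 444 to 542 CPM in control mice and 319 to 459 CPM in stress mice and monocyte and macrophage markers to 441 to 639.8 CPM in control mice and 565 to 612 CPM in stress mice, with overlap in both. The part of these lists in the 4 changes was not tested beyond the fits within clusters.

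Cluster 20 held 20, 109 and 41 cells in control mice 1 to 3 and 71, 350 and 186 cells in stress mice 1 to 3. Within cluster 20 none of the 8 members tested passed, against 0.313% of genes. Of these, 1 had an unadjusted p under 0.05, as had 855 of 6387 genes, and DESeq2 called none. Ccl22 there stood at 31.1, 267 and 166 CPM in control mice 1 to 3 and 224, 355 and 621 CPM in stress mice 1 to 3 (log2 fold change 1.35, SE 0.48, adjusted p = 0.264). The value of control mouse 1 came from 5 UMIs. With the replicate number as a block Ccl22 passed in cluster 20 (log2 fold change 1.45, adjusted p = 0.0136), beside 169 of 6387 genes. For Ccl17 the log2 fold change was 0.79 (adjusted p = 0.405) and for Ccl5 0.62 (adjusted p = 0.454). The groups overlapped for all 3, through control mouse 2 for Ccl17 and Ccl22. For Ccl5, control mice 2 and 3 lay above stress mouse 2. Ccl12 was all but absent from cluster 20, with at most 1.76 CPM in a mouse, and was not tested.

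Within cluster 19 none of the 10 members passed either, against 0.425% of genes, with 5 at an unadjusted p under 0.05, beside 842 of 9878 genes, and none called by DESeq2. For 3 members every stress mouse was higher, as for 5.79% of genes. Ccl5 there stood at 17.3, 71.6 and 38.4 CPM in control mice 1 to 3 and 293, 102 and 149 CPM in stress mice 1 to 3 (log2 fold change 1.92, SE 0.42, adjusted p = 0.0875). Ccl12 stood at 0, 2.33 and 1.92 CPM in control mice 1 to 3 and 16.0, 8.09 and 11.7 CPM in stress mice 1 to 3 (log2 fold change 2.54, SE 0.56, adjusted p = 0.0923). Ccl4 was the third, at 24.7, 203 and 73.9 CPM in control mice 1 to 3 and 362, 233 and 255 CPM in stress mice 1 to 3 (log2 fold change 1.39, SE 0.44, adjusted p = 0.321). The groups overlapped for Ccl17 and Ccl22 in cluster 19, where the log2 fold change was 2.16 for Ccl17 (adjusted p = 0.288) and 1.42 for Ccl22 (adjusted p = 0.556). Over the 10 alternatives that gave a value it ran from 1.64 to 4.69 for Ccl17 and from 0.70 to 3.61 for Ccl22. Over all 10 members the median in cluster 19 was 1.29. Without called doublets none of the 6 members tested passed, with a median of -0.093 (16 of 4103 genes called). With thinned cells none of the 5 tested passed, with a median of 0.33 (5 of 1726 genes called). Without control mouse 2, Ccl4, Ccl5 and Ccl17 passed in cluster 19 (adjusted p = 0.0118, 0.0343 and 0.0431), as did Ccl5 without stress mouse 2 (0.0216). These fits called 80 of 9225 genes and 56 of 9293 genes. With the replicate number as a block Ccl4, Ccl5, Ccl12 and Ccl17 passed there (adjusted p = 0.0481, 0.0180, 0.0443 and 0.0143), beside 147 of 9878 genes.

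**Figure D4:**
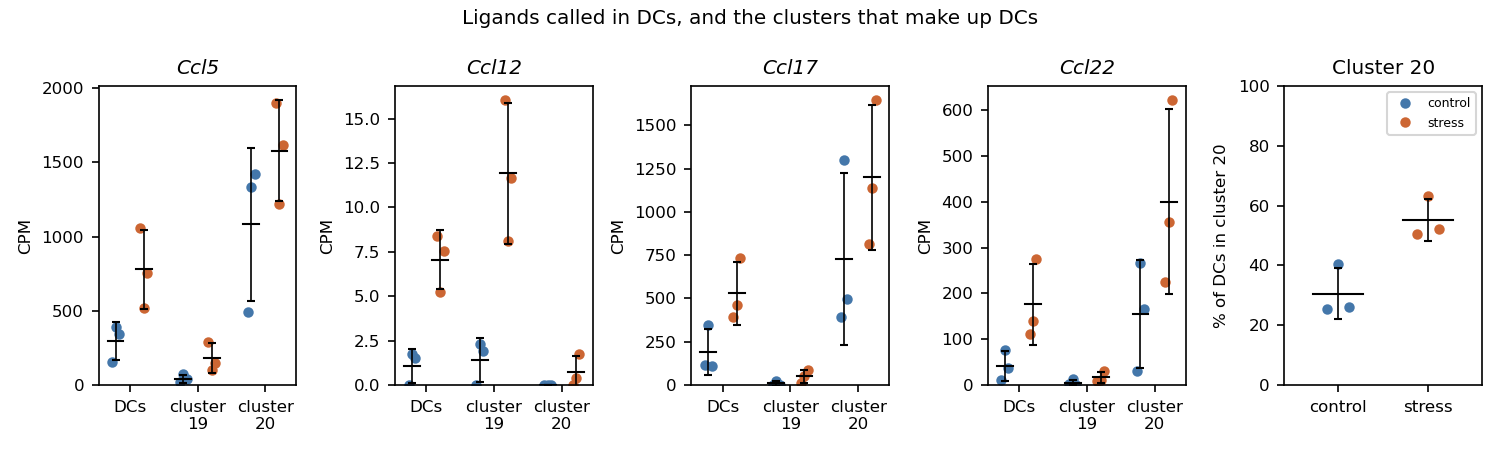
CPM by mouse (points), with the group mean (line) and SD (bar, n = 3 mice), of the 4 ligands called in DCs, in all DCs and in each of the 2 clusters that make up DCs, and the percent of DCs in cluster 20 (right). Control mice are blue and stress mice orange. The groups are apart in all DCs for the 4 ligands and overlap within cluster 20, and cluster 20 made up a larger percent of DCs in every stress mouse.

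The calls in DCs depended on single mice. Without control mouse 1, control mouse 3 or stress mouse 3, none of the 4 passed, with adjusted p of 0.0770, 0.0589 and 0.0987 for Ccl5, 0.175, 0.134 and 0.203 for Ccl17, and 0.0809, 0.0976 and 0.136 for Ccl22. Without stress mouse 1 the calls of Ccl5 and Ccl17 were lost (adjusted p = 0.0911 and 0.0687), and without stress mouse 2 that of Ccl17 (0.0508). Ccl12 passed under none of the 5 mice whose omission gave a value (adjusted p 0.0633 to 0.124). Without called doublets the adjusted p was 0.172 for Ccl5, 0.317 for Ccl17 and 0.192 for Ccl22, with fold changes of 1.11, 1.2 and 1.76 on the log2 scale. With cells thinned to 1000 UMIs none of the 8 members tested in DCs passed, while 23 of 3069 genes did. Before thinning the median UMIs per DC were 1609, 5478 and 1924 in control mice 1 to 3 and 4464, 7101 and 7772 in stress mice 1 to 3. Over all alternatives the adjusted p ran from 1.70e-15 to 0.454 for Ccl5, from 0.00537 to 0.124 for Ccl12, from 2.38e-16 to 0.405 for Ccl17 and from 1.75e-22 to 0.556 for Ccl22, with the fold change above 0 in each. DESeq2 called 1 of the 4, Ccl5 (adjusted p = 0.0335), with an adjusted p of 0.124 for Ccl17, 0.0973 for Ccl22 and none given for Ccl12.

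In tumor cells 1 of the 10 members tested, Ccl2, passed the threshold, beside 21.4% of all genes. Ccl2 stood at 4.98, 4.28 and 4.45 CPM in control mice 1 to 3 and 10.0, 6.38 and 21.4 CPM in stress mice 1 to 3 (log2 fold change 1.32, SE 0.39, adjusted p = 0.0496). Its groups did not overlap, with stress mouse 3 highest, and 28.2% of genes were likewise higher in every stress mouse. Without control mouse 2 the call moved to other members, Ccl4, Ccl5, Ccl17 and Ccl22 (adjusted p = 0.0446, 0.0166, 0.0199 and 0.0225), while 5790 of 19354 genes were called in that fit. The Ccl2 call was lost without any 1 of the control mice (adjusted p = 0.101, 0.0696 and 0.133), without stress mouse 1 (0.0785) and without stress mouse 3 (0.101, log2 fold change 0.73). It was also lost with cells thinned to 1000 UMIs, where none of the 5 members tested passed, beside 443 of 11281 genes called. Over all alternatives the adjusted p of Ccl2 ran from 0.00197 to 0.205. Over the 10 members the median fold change in tumor cells was 0.76 on the log2 scale, and over all genes -0.012. For the members it was 0.44 without control mouse 1, 0.47 without stress mouse 3 and 1.64 without control mouse 2.

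These Ccl2 levels were low for the tissue. After thinning, 0.669% of tumor cells had a Ccl2 UMI (8.94% before thinning, at a median of 21971 to 32523 UMIs per cell), and so did 1.11% of B cells, taken as cells that should lack it (2.63% before, at a median of 2216 to 8897 UMIs). The share in tumor cells was 0.557%, 0.460% and 0.384% in control mice 1 to 3 and 0.937%, 0.342% and 1.73% in stress mice 1 to 3 and that in B cells 0%, 0% and 0% in control mice 1 to 3 and 4.0%, 2.15% and 0.909% in stress mice 1 to 3, so tumor cells lay above B cells in 4 of 6 mice although below them with all mice pooled. The order of the 2 cell types is not settled by these few B cells. B cells, where Ccl2 could not be tested, held 0, 1 and 0 UMIs in the control mice, then 7, 4 and 5 UMIs in the stress mice. In the other cell types tested the Ccl2 difference did not pass with all mice. The log2 fold change was 2.05 in NK/T cells (adjusted p = 0.277), 1.56 in cluster 23 (adjusted p = 0.436), 0.41 in DCs, 0.24 in ECs, -0.039 in inflammatory myeloid cells and -0.60 in monocytes. Summed in tumor cells, monocyte and macrophage markers were 13.1 to 29.8 CPM in control mice and 13.8 to 28.7 CPM in stress mice, and HSC markers 0.819 to 1.70 CPM in control mice and 2.22 to 4.85 CPM in stress mice. The HSC list, with 1 of its 5 markers at 0 in all mice, separated the groups as Ccl2 did, and its part in the Ccl2 value was not tested.

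**Figure D5:**
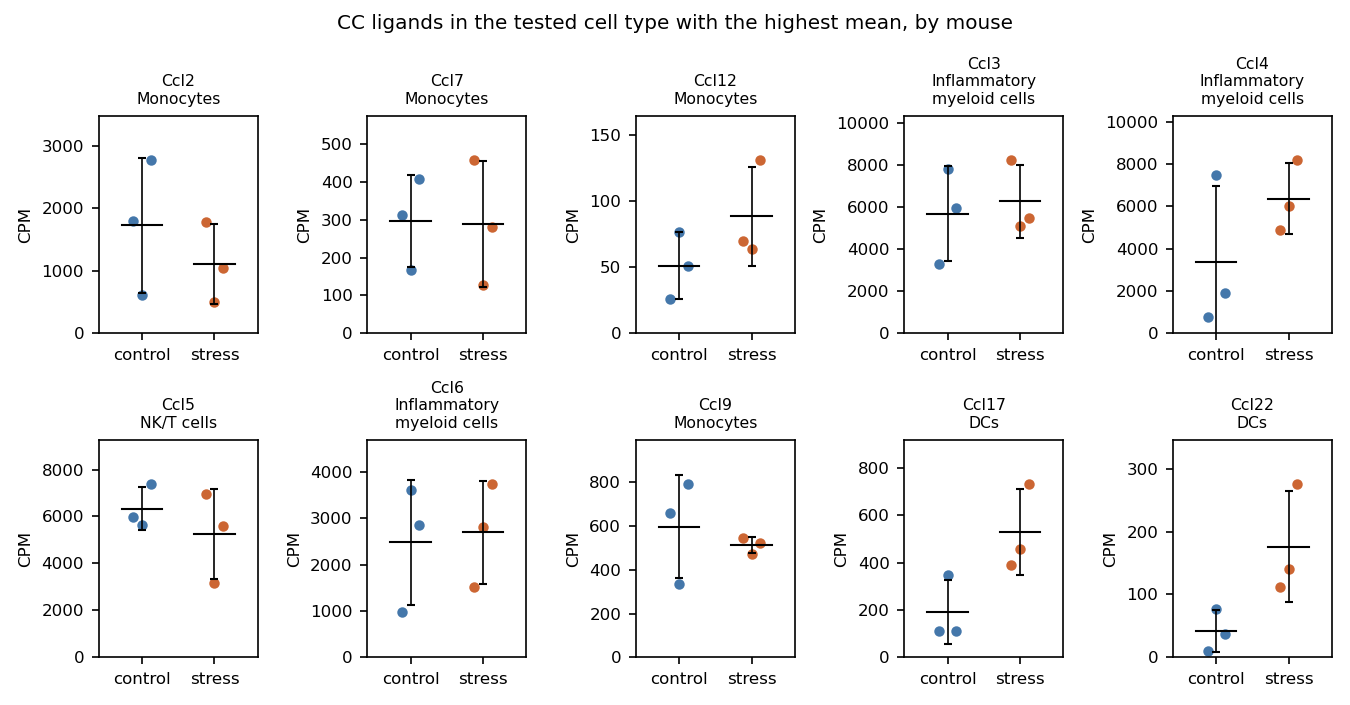
CPM of each CC ligand by mouse (points), with the group mean (line) and SD (bar, n = 3 mice), in the tested cell type where its mean over the 6 mice was highest. The groups overlap in 8 of the 10 panels, and for Ccl17 and Ccl22 in DCs the 3 stress mice lie above the 3 control mice.

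In the tested cell type with the highest mean level of each ligand, the groups overlapped for 8 of the 10 members. In monocytes the values were those of Ccl2 (log2 fold change -0.60, SE 0.59, adjusted p = 0.694), Ccl7 (log2 fold change 0.0053, SE 0.48, adjusted p = 0.997), Ccl12 (log2 fold change 0.84, SE 0.42, adjusted p = 0.461) and Ccl9 (log2 fold change -0.17, SE 0.31, adjusted p = 0.845). For Ccl7 the control values, 167 to 407 CPM, fell inside the stress values, 127 to 458 CPM. In inflammatory myeloid cells they were those of Ccl3 (log2 fold change 0.21, SE 0.64, adjusted p = 0.994), Ccl4 (log2 fold change 1.04, SE 0.87, adjusted p = 0.994) and Ccl6 (log2 fold change 0.28, SE 0.71, adjusted p = 0.994). Over all alternatives the log2 fold change of Ccl4 there ran from 0.49 to 2.38. Ccl5 in NK/T cells did not pass either (log2 fold change -0.18, SE 0.26, adjusted p = 0.838). The sign of 5 of these 8 uncalled values turned with a single mouse left out. It became -0.17 for Ccl3 and -0.20 for Ccl6 without control mouse 1, -0.35 for Ccl6 without stress mouse 3, -0.46, -0.29 and -0.004 for Ccl7 without stress mouse 1, control mouse 2 and stress mouse 3, 0.13 for Ccl9 without control mouse 3, and 0.10 for Ccl5 without stress mouse 2. With standard errors of 0.26 to 0.87 on the log2 scale, changes of the size of these errors were not detectable with 3 mice per group.

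The monocyte cluster makeup differed between mice. Cluster 13, the highest for Ccl2, was 57.6%, 23.1% and 51.5% of the monocytes of control mice 1 to 3 and 38.1%, 12.1% and 31.0% of those of stress mice 1 to 3, with overlap. With cluster 13 left out, which was decided with the values known, the Ccl2 fold change in monocytes was 0.019 on the log2 scale. Within cluster 13 itself it was -0.33 (adjusted p = 0.900).

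Over the 7 myeloid clusters tested, none of the 57 pairs of a member and a cluster passed in edgeR, 12 had an unadjusted p under 0.05 and DESeq2 called 1. Of all genes, between 365 of 9219 in cluster 0 and 855 of 6387 in cluster 20 had such a p. Genes called in these fits were 0% in cluster 0, 0.102% in cluster 11, 0.218% in cluster 12, 0.0984% in cluster 13 and 0.561% in cluster 23. In monocyte cluster 12, 1 of 8 members tested was higher in every stress mouse, as were 6.22% of genes. This was Ccl5, at 6.62, 43.0 and 13.6 CPM in control mice 1 to 3 and 63.1, 132 and 239 CPM in stress mice 1 to 3 (log2 fold change 2.65, SE 0.52, adjusted p = 0.0789), and it was the pair that DESeq2 called (adjusted p = 0.0389). In edgeR it passed without control mouse 2 (0.0212) and without stress mouse 1 (0.0332), and when mice were blocked by replicate number (0.00178), fits that called 92 of 8374 genes, 78 of 9724 genes and 197 of 8697 genes. In cluster 11, 1 of 10 members was, beside 7.06% of genes. This was Ccl4, at 515, 1624 and 531 CPM in control mice 1 to 3 and 1854, 2021 and 1824 CPM in stress mice 1 to 3 (log2 fold change 1.16, SE 0.42, adjusted p = 0.344), with control mouse 2 close below the lowest stress mouse, and without control mouse 2 it passed (adjusted p = 0.00486), beside 57 of 9750 genes. In cluster 13, 1 of 9 members was, beside 5.39% of genes, again Ccl4, at 785, 2561 and 1249.8 CPM in control mice 1 to 3 and 3031, 2945 and 2618 CPM in stress mice 1 to 3 (log2 fold change 0.95, adjusted p = 0.525).

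NK/T cells differed in direction for Ccl4. There it stood at 823, 1488 and 789 CPM in control mice 1 to 3 and 688, 577 and 719 CPM in stress mice 1 to 3 (log2 fold change -0.57, SE 0.22, adjusted p = 0.297), lower in every stress mouse, as were 13.3% of the genes tested in NK/T cells. It was the 1 pair of a member and a cell type with all stress mice below all control mice, and it did not pass the threshold with all cells. Without called doublets it did (log2 fold change -0.79, adjusted p = 0.0312, beside 445 of 9590 genes), and also with cells thinned to 1000 UMIs (-0.80, adjusted p = 0.00391). Ccl3 in NK/T cells stood at 268, 355 and 257 CPM in control mice 1 to 3 and 254, 183 and 296 CPM in stress mice 1 to 3 (log2 fold change -0.20, SE 0.20, adjusted p = 0.742) and passed when thinned (log2 fold change -0.63, adjusted p = 0.0255), in a fit that called 214 of 5447 genes.

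Ccl6 in ECs was examined because the study assayed Ccl6 mRNA in endothelial cells, after another treatment, with the primer pair below.
Ccl6 forward primer: gctggcctcatacaagaaatgg
Ccl6 reverse primer: gcttaggcacctctgaactctc
Among 62 GENCODE transcripts of 20 CC ligands, only the protein-coding transcript of Ccl6 held both sites, 246 bases apart from end to end. The forward primer covers bases 207 to 228 of that transcript, across the junction of exons 1 and 2, and the reverse primer matches bases 431 to 452 in exon 4, and both lie in coding sequence. On the genome (GRCm38, chromosome 11, minus strand) the reverse site is 83588870 to 83588891, in exon 4. The level of Ccl6 in ECs was 16.2, 49.7 and 57.3 CPM in control mice 1 to 3 and 16.5, 38.2 and 61.2 CPM in stress mice 1 to 3 (log2 fold change -0.12, SE 0.56, adjusted p = 0.935). The groups overlapped throughout. This was 39.9 CPM on average, below the 2284 CPM of monocytes in every mouse, and 2.44% of ECs had a UMI after thinning (8.23% before), against 2.89% of B cells (9.63% before). Thinned ECs lay above B cells in 4 of 6 mice and above tumor cells (0.679%) in all 6. ECs held 2.06% of Ccl6 UMIs.

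The receptors of these ligands were counted in the same fits. Of 14 CC receptor genes, 13 were tested in at least 1 cell type, giving 49 pairs of a gene and a cell type, of which 4 passed and all 4 were higher in stress mice. Ccr7, which guides mature DCs and naive T cells to lymph nodes, passed in DCs, where 2.64% of genes did, and in NK/T cells, where 0.857% did. In DCs it stood at 79.6, 118 and 177 CPM in control mice 1 to 3 and 389.8, 463 and 535 CPM in stress mice 1 to 3 (log2 fold change 1.97, SE 0.23, adjusted p = 0.00211), and in NK/T cells at 32.7, 26.0 and 30.1 CPM in control mice 1 to 3 and 122, 57.5 and 121 CPM in stress mice 1 to 3 (log2 fold change 1.90, SE 0.31, adjusted p = 0.0132). The groups did not overlap in either cell type. In DCs Ccr7 also marks cluster 20, whose share of DCs was larger in stress mice.

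Ccr4, the receptor of Ccl17 and Ccl22, passed in tumor cells, at 1.55, 1.66 and 1.35 CPM in control mice 1 to 3 and 4.60, 6.66 and 6.86 CPM in stress mice 1 to 3 (log2 fold change 1.84, SE 0.17, adjusted p = 0.00360), and in whole tumors, at 1.46, 1.66 and 1.31 CPM in control mice 1 to 3 and 4.21, 5.80 and 5.20 CPM in stress mice 1 to 3 (log2 fold change 1.63, SE 0.17, adjusted p = 0.0209). Ackr4, a scavenging receptor, passed in tumor cells at under 1 CPM in every mouse (log2 fold change 1.11, adjusted p = 0.0258). These calls in tumor cells stand beside a background of 21.4%. In whole tumors Ccr9 and Ccr10 passed as well, also at low levels, with at most 1.65 and 0.415 CPM in a mouse. The background in whole tumors was 10.1%.

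Ccr2 and Ccr1 were not called in any cell type. Ccr2 was highest in monocytes at 179 CPM (82.4 to 266 over the 6 mice), and Ccr1 in inflammatory myeloid cells at 713 CPM (256 to 1079.7). Thus cells labelled monocytes carried both Ccl2 and Ccr2, and inflammatory myeloid cells carried Ccl3, Ccl6 and Ccr1. Among myeloid clusters mean Ccr2 was highest in cluster 12 (318 CPM), while mean Ccl2 was highest in cluster 13 (2622 CPM, against 850 CPM in cluster 12). Among the 10 other CC ligand genes, 8 were tested somewhere, in 21 pairs, and 2 passed, both higher in stress mice and both in tumor cells, beside 21.4% of genes. Ccl20 reached 0.984 CPM at most (log2 fold change 1.68, SE 0.38, adjusted p = 0.0218) and Ccl28 0.386 CPM (log2 fold change 1.60, SE 0.34, adjusted p = 0.0180). In whole tumors, with 10.1% of genes called, Ccl28 passed as well (log2 fold change 1.28, SE 0.24, adjusted p = 0.0305).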

How the data were processed

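Single-cell RNA-seq was analysed from liver tumors of 3 control and 3 stress mice. The authors deposited per library a matrix of raw UMI counts made with Cell Ranger (9.0.0 for control, 7.1.0 for stress libraries, build mm10 per the submitters' processing notes), and a table with the cell type and cluster of each cell. Cells in that table were used, with no further filter. For each mouse, counts were added up over a cell type, myeloid cluster or the whole tumor and given as CPM. Units with at least 10 cells in every mouse were tested with edgeR 4.0.16 (R 4.3.3; filterByExpr, TMM, quasi-likelihood test), each over all genes, with Benjamini-Hochberg adjustment, after the code had been tested on simulated data. The standard error (SE) is the absolute log2 fold change divided by the square root of F. P-values measure the spread between mice. Doublets were called per library with Scrublet (scanpy 1.11.5) and kept except in an alternative.

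Alternatives were RLE size factors, DESeq2 1.42.0, no filter on low counts, the replicate number as a block, leaving out each mouse, no doublets and cells thinned to 1000 UMIs. Leaving out 1 cluster of a cell type was added after the data were seen. The limit that a count of 0 allows was set at 3 counts and covers counting error only.

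The members, marker lists and pathway lists were chosen with earlier results of these data known. Statistics are given for every member in the tested cell type with its highest mean, for pairs past the threshold, for pairs with an absolute log2 fold change of at least 1 whose groups do not overlap, and for Ccl6 in ECs. Ccl3, Ccl4 and Ccl5 in NK/T cells, Ccl2 in the other cell types, and members within clusters 19 and 20 were added after their values were seen. Levels between genes are UMIs, not corrected for length.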

Additional observations from a re-analysis of the deposited data

Results flagged for a closer look

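Ccl4 moved in opposite directions in different cells. Every stress mouse lay above every control mouse in clusters 11, 13 and 19, with log2 fold changes of 1.16, 0.95 and 1.39, and every stress mouse lay below every control mouse in NK/T cells, with -0.57. The difference between these cell types was not tested, and none of the 4 values passed the threshold with all mice and cells.

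In neutrophils, which were left out of the tests for having 4 to 57 cells per mouse, the lowest Ccl4 value of a stress mouse was 343 CPM and that of Ccl5 102 CPM. Both were above the highest control value or the limit that a count of 0 allows there (3 counts), 89.8 CPM for Ccl4 and 64.3 CPM for Ccl5. Control mice 1 and 3, with 4 and 17 neutrophils, had no UMI of either ligand. The share of all genes that separated the groups in neutrophils was not counted. The separation therefore cannot be taken as particular to Ccl4 and Ccl5. NK/T markers summed to 0 to 141 CPM in control mice and 223 to 570.3 CPM in stress mice in the same cells, and their part in these values was not tested.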

How the results depend on the processing

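RLE size factors gave the same 5 calls over cell types and none over clusters. Over cell types the number of calls went from 5 to 13 with no filter on low counts and to 2 with DESeq2. With no filter 5 were in DCs, beside 815 of 21487 genes, and 1 in tumor cells, beside 4013 of 27812 genes. With the replicate block the number of calls was 9 (5 in DCs, 3 in tumor cells and 1 in ECs). Without called doublets it was 2 (1 in tumor cells and 1 in NK/T cells). Thinned cells also gave 2, both in NK/T cells, so none of the 5 remained. The number was 1 with DCs without cluster 19, 1 with DCs without cluster 20, and 0 to 9 when 1 mouse was left out. Over myeloid clusters 0 became 15 with no filter, 6 with the replicate block, 1 with DESeq2 and 0 to 6 with 1 mouse left out. The cluster fits with no filter called between 80 of 20510 genes (cluster 0) and 496 of 21262 genes (cluster 11). In whole tumors 0 became 3 with the replicate block (Ccl9, Ccl17 and Ccl22) and 0 to 2 with 1 mouse left out. Among the fits that left out 1 mouse, the highest of these counts came without control mouse 2. No label ties a replicate number to a litter, batch or day. Deviations of same-numbered mice correlated at 0.80, 0.51 and 0.02 in whole tumors, where 2 of 3 control mice correlated best with their own number. All 3 pairs were above 0.1 in monocytes (0.51, 0.45 and 0.16), inflammatory myeloid cells (0.66, 0.11 and 0.48), cluster 13 (0.40, 0.42 and 0.30) and cluster 20 (0.33, 0.20 and 0.15). With the block, genes called there went from 15 to 205, 0 to 9, 9 to 144 and 20 to 169, and of the members Ccl22 in cluster 20 alone passed. In each other unit at least 1 pair was below 0.1.

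Signs that turned were all of uncalled values. With 1 mouse left out the log2 fold change ran from -0.46 to 0.37 for Ccl7 and -0.47 to 0.13 for Ccl9 in monocytes, -0.17 to 0.52 for Ccl3 and -0.35 to 0.63 for Ccl6 in inflammatory myeloid cells, -0.62 to 0.24 for Ccl6 in ECs and -0.49 to 0.10 for Ccl5 in NK/T cells. Ccl7 in monocytes became -0.082 with the replicate block, -0.14 without doublets, -0.17 thinned and -0.015 without cluster 12. Ccl6 in inflammatory myeloid cells became -0.00076 thinned. Without cluster 13, Ccl2 and Ccl9 in monocytes became 0.019 and 0.17. The cause was not tested. Of the alternatives for 25 pairs (those of the rule for statistics, and some within clusters 19 and 20), 230 kept direction and call, 22 gained and 38 lost a call and 18 turned.

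Genes called in DCs were 278 and went from 8 (without doublets) to 815 (no filter), with 357 by DESeq2 and 661 with the block. Tumor cells had 4041 calls, 443 when thinned and 5790 without control mouse 2. Whole tumors had 2080, 0 without control mouse 1 and 4042 by DESeq2. The highest count came with no filter in all other fits but that of ECs, where it came with DESeq2, going from 28 to 306 in B cells, 30 to 421 in ECs, 0 to 80 in inflammatory myeloid cells, 15 to 214 in monocytes, 96 to 479 in NK/T cells, 53 to 321 in cluster 23, 11 to 496 in cluster 11, 19 to 379 in cluster 12, 9 to 355 in cluster 13, 42 to 232 in cluster 19 and 20 to 214 in cluster 20. Ccl12 in DCs had too few UMIs for a value without stress mouse 3, without doublets, when thinned or without cluster 19, and no adjusted p in DESeq2.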

Other observations

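HSCs, the hepatic stellate cells of these tumors, were too few to test (6 to 50 cells per mouse) and held both Ccl2 and Ccl7. Mean Ccl7 was 499 CPM there and 292 CPM in monocytes, and mean Ccl2 was 562 CPM there and 1421 CPM in monocytes. Ccl2 stood at 147, 1106 and 0 CPM in control mice 1 to 3 and 593, 679 and 849 CPM in stress mice 1 to 3, and Ccl7 at 140.0, 1092 and 169 CPM in control mice 1 to 3 and 309, 512 and 772 CPM in stress mice 1 to 3. The groups overlapped for both. Ccl7 in HSCs lay above its monocyte level in control mouse 2 and stress mice 2 and 3, and below it in the other mice. Control mouse 2, highest for both ligands, had 6 HSCs, of which 4 were called doublets. Monocyte and macrophage markers in HSCs summed to 25.9 to 172 CPM in control mice and 24.9 to 61.4 CPM in stress mice, and Ccl6, which monocytes held at 1689 CPM or more, was at 3.33, 129 and 13 CPM in control mice 1 to 3 and 0, 3.55 and 24.6 CPM in stress mice 1 to 3.

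Other CC ligands marked further cells. Ccl24, a ligand of Ccr3, was highest in monocytes at 322 CPM (109 to 603 over the 6 mice) and averaged 686 CPM in cluster 13. Ccl8, a further relative of Ccl2, was highest in monocytes at 75.9 CPM (21.9 to 195), with 204 CPM in cluster 11. Ccl1, the ligand of Ccr8, was highest in NK/T cells at 45.4 CPM (32.4 to 69.0), where Ccr8 was also highest, at 17.4 CPM (6.70 to 36.8). Ackr1, a chemokine receptor of venular endothelium, was highest in ECs at 97.2 CPM (31.6 to 237), and the scavenging receptor Ackr2 likewise in ECs at 32.5 CPM (19.2 to 51.1). Ccl24, Ccl8, Ccl1, Ccr8, Ackr1 and Ackr2 passed the threshold in none of the cell types where they were tested.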
